A study of Mus musculus with 6 samples.

Results

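The interferon-stimulated genes (ISGs) described here are 41 named genes whose transcription is induced by interferon, and all 41 matched a row of the deposited count table, which held 24445 genes. They were picked by symbol, with no value in the rule, at a time when earlier results of these data were known. For each gene the transcript with the highest total count over the 6 libraries was kept. The RNA came from BMDMs (bone marrow-derived macrophages), grown out of mouse marrow over 7 days with L929-conditioned medium and exposed to IL-4 at 100 U/mL for 24 h. Control (Ctrl) cells, labelled WT, were Acly fl/fl cells with loxP sites around exon 9 of *Acly*. The knockout (Acly M-KO) cells, labelled KO, carried the same floxed allele and Lyz2-Cre, which is active in myeloid cells. There were 3 libraries in each group, both groups were on the C57Bl/6J background, and both had received IL-4. Cre was present only in the knockout, so Cre and the loss of *Acly* cannot be told apart. No interferon was added according to the study's methods, and naive cells were not analysed here. The age of the marrow donors is not given in the sources used here.

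Type I interferons bind a receptor made of IFNAR1 and IFNAR2, and the attached kinases JAK1 and TYK2 phosphorylate STAT2. STAT2 and IRF9 are subunits of the complex ISGF3, which binds the interferon-stimulated response element (ISRE) of ISG promoters. Interferon-gamma instead acts through IFNGR1, IFNGR2, JAK1 and JAK2, and promoters of its targets hold a different element, GAS. In resting macrophages a low basal interferon signal keeps many ISGs expressed, and their products sense or destroy viral nucleic acid, block viral translation or stop virus entry and release. IL-4 signals mainly through STAT6, which is not a part of ISGF3.

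The 6 libraries held 12151975 to 15587283 counts, and each Acly M-KO library (14745614 to 15587283) was deeper than each Ctrl library (12151975 to 14739689). *Acly* itself, which encodes the enzyme that makes cytosolic acetyl-CoA from citrate, had 332, 321 and 350 CPM (counts scaled to a common library total) in the 3 Ctrl libraries and 146, 134 and 136 CPM in the Acly M-KO libraries. Its log2 difference was -1.27 (SE 0.0533, edgeR adjusted p = 5.22e-10), so the labels matched the targeted gene in all 6 libraries. The study's text calls the replicates biological in one place and technical, from pooled mice, in another, so the p-values measure the spread between these libraries, which may be technical. Macrophage markers summed to 7274 to 7590 CPM in Ctrl and to 6973 to 7339 CPM in the knockout, with all 7 genes detected. CPM here are scaled by TMM, a normalization that centres the bulk of genes on no change, and every test across genes is the quasi-likelihood test of edgeR with Benjamini-Hochberg adjustment.

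The promoters of the ISGs were examined first, for the element that ISGF3 binds. Windows from 250 bases before to 50 bases after the annotated start were available in RefSeq (GRCm38.p6) for 31 of the 41 members. The core of the ISRE, GAAANNGAAA on either strand (TTTCNNTTTC when read on the other), occurred in 18 of these 31 genes (58.1%), against 1079 of all 27025 genes with a window (3.99%). The palindromic core of GAS, TTCNNNGAA, occurred in 9 of the 31 members (29%) and in 9.55% of all genes. Matches to both patterns overlapped in *Bst2* and *Ifitm3*. A match to these letters is a description of the sequence and not a measured binding site.

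The stretches around the ISRE cores are shown for 9 members with a core. They run from the highest increase to members that fell or did not pass the test. Each is read 5′ to 3′ on the strand of its gene with the core in capitals. Overlapping cores merge into longer capitals, as in *Isg15*.
Oas3, chr5:120777710-120777749, minus strand: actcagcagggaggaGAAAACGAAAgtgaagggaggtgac
Oas1a, chr5:120907526-120907560, minus strand: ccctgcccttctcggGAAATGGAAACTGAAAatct
Gbp2, chr3:142620589-142620628, plus strand: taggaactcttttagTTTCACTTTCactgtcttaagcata
Gbp7, chr3:142530268-142530307, plus strand: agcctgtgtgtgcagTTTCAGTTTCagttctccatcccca
Gbp3, chr3:142559984-142560029, plus strand: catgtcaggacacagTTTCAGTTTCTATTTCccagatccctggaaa
Isg15, chr4:156200860-156200911, minus strand: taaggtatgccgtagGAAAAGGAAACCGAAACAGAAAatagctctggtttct
Ifit1, chr19:34640770-34640828, plus strand: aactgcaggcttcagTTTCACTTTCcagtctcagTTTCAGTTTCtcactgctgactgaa
Rsad2, chr12:26456548-26456587, minus strand: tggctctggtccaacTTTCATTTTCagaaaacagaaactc
Stat2, chr10:128270261-128270300, plus strand: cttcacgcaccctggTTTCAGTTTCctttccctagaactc

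Of these 9 genes, *Oas3*, *Oas1a* and *Gbp2* were higher in Acly M-KO BMDMs, *Gbp7* was lower, and the other 5 did not pass the test. Among the 17 tested members with an ISRE core, 4 were higher and 1 was lower. Among the 13 tested members with a window and no core, 4 were higher (*Oasl2*, *Cmpk2*, *Herc6* and *Ifi35*) and 0 were lower. Of all tested genes, 12.4% were higher and 12.6% lower at an adjusted p under 0.05. *Oas2* and *Rtp4*, which were also higher, had no window. Close copies share these stretches. All 33 upstream bases found around the cores of *Oas1g* occur in the *Oas1a* stretch shown, and the 74 bases around the cores of *Ifit3* and *Ifit3b* are identical.

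In IL-4-treated Acly M-KO BMDMs a subset of the ISGs was expressed at a higher level than in Ctrl, led by the OAS family, *Cmpk2*, *Rtp4* and *Ifitm3*, while *Gbp7*, *Ifi204* and *Parp9* were lower and the classical ISGs *Isg15*, *Ifit1*, *Ifit3*, *Mx1*, *Irf7* and *Stat2* did not pass the test. The log2 fold changes of these classical ISGs were 0.40, 0.35, 0.35, 0.17, 0.19 and 0.04 in that order. *Oas1a* (0.29) and *Herc6* (0.35) passed, so passing or not does not by itself separate the genes by size of change. Of the 41 members, 40 had enough counts to be tested. At an adjusted p under 0.05, 10 members were higher (25% of those tested, against 12.4% of all 12023 tested genes) and 3 were lower (7.5%, against 12.6%), which left 27 that were neither. With the added requirement of a log2 fold change beyond 0.58 in size, 4 members were higher (10%, against 2.98%) and 0 were lower (against 2.57%). These 4 were *Oas3*, *Oasl2*, *Cmpk2* and *Oas2*. At an unadjusted p under 0.05 in edgeR 14 members were higher and 3 were lower, against 2188 and 2228 of all 12023 tested genes. Of the 3 lower members, 0 were beyond the limit, and DESeq2 and limma-voom also called 0 lower members beyond it. All 3 Acly M-KO libraries lay above all Ctrl libraries for 14 members (35%, against 20.5% of all tested genes) and below them for 5 (12.5%, against 19.8%). The median log2 fold change of the 40 members was 0.18, with a range of -0.41 to 0.74, and the median over all tested genes was 0.0014.

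The number of members beyond the limit depended on the libraries. It was 2 without the second Acly M-KO library, 2 without the third, 3 without the second Ctrl library and 6 without the first Acly M-KO library. The median log2 fold change of the members was 0.10 without the second Acly M-KO library. A test against the limit itself (edgeR's glmTreat) gave 0 members, so a change of that size or more was not established for any single ISG.

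**Figure D1:**
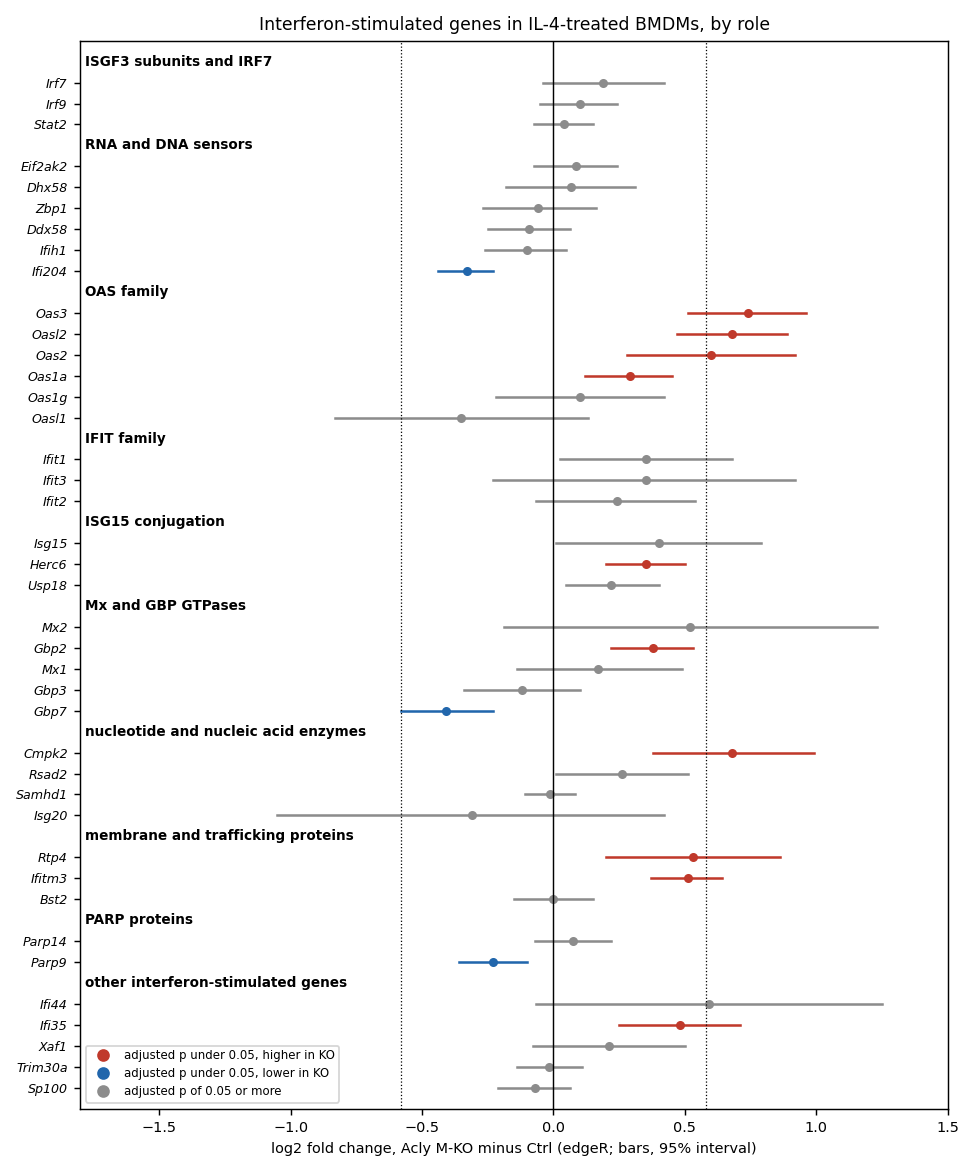
Log2 fold change (x axis, Acly M-KO minus Ctrl, from edgeR) of the 40 tested ISGs by role, with 95% intervals as bars and the limit of 0.58 as dotted lines. The 10 red genes lie to the right of 0 and include 4 of the 6 OAS genes, the 3 blue genes lie to the left, and the grey genes have an adjusted p of 0.05 or more.

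The level of the members spanned more than the differences between the groups. Per transcript length, as CPM per kilobase of transcript (RPKM), the most abundant member was *Samhd1*, a dNTP-degrading enzyme that restricts retroviruses, at 256 ± 7.01 RPKM (SD, n = 3) in Ctrl. It was followed by *Bst2*, the tethering protein that holds budding virions on the cell, at 164 ± 19.9 RPKM, and by *Ifitm3*, which blocks virus entry from endosomes, at 105 ± 8.59 RPKM. The DNA sensor *Ifi204* stood at 62.6 ± 0.864 RPKM. *Isg15* was at 5.39 ± 0.495 RPKM, *Ifit1* at 2.9 ± 0.553 RPKM and *Mx2* at 0.344 ± 0.0844 RPKM. Transcripts of the sensing and signalling members were present without added interferon, and most IFIT and Mx transcripts were among the lower levels.

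**Figure D2:**
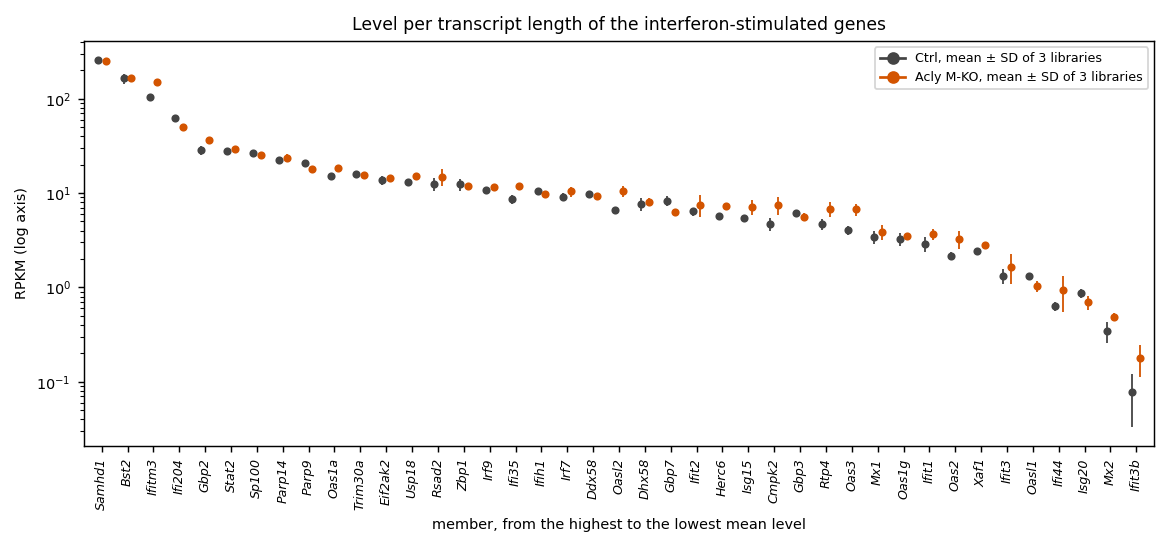
Mean level per transcript length (y axis, RPKM on a log axis) of each of the 41 ISGs in Ctrl (grey) and Acly M-KO (orange) BMDMs, with the SD of 3 libraries as bars. *Samhd1* at 256 RPKM in Ctrl is the highest and *Ifit3b* at 0.0775 RPKM the lowest, and the 2 groups lie close to each other for most genes.

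The transcription factors that drive the group did not pass the test in edgeR, DESeq2 or limma-voom, also at an unadjusted p under 0.05 in edgeR (0 of 3). At an adjusted p under 0.05 in edgeR, 12.4% of all tested genes were higher and 12.6% lower. *Stat2*, the subunit that gives ISGF3 its activating domain and the most abundant of the 3 per length, had 129, 120 and 121 CPM in Ctrl and 123, 124 and 135 CPM in the knockout. These values overlapped between the groups, and the log2 fold change was 0.04 with a 95% interval from -0.073 to 0.15 (edgeR adjusted p = 0.629). Its value without the third Acly M-KO library was -0.00096. *Irf9*, the DNA-binding subunit of ISGF3, differed by 0.10 on the log2 scale (-0.052 to 0.24, edgeR adjusted p = 0.343). The log2 difference of *Irf7*, the factor that amplifies interferon production, was 0.19 (-0.038 to 0.42, edgeR adjusted p = 0.217), and its groups overlapped.

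The 3 largest log2 fold changes among members that passed, of *Oas3*, *Oasl2* and *Cmpk2*, included those of 2 OAS genes, although the OAS family ranged from -0.35 to 0.74. Enzymes of this family make 2′-5′-linked oligoadenylates on double-stranded RNA, which activate RNase L. Of its 6 members, 4 were higher in Acly M-KO (66.7%, against 12.4% of all tested genes) and 0 were lower (against 12.6%). *Oas3*, the synthase that responds best to long double-stranded RNA, had 18.3, 17.5 and 21.6 CPM in Ctrl and 27.5, 31.5 and 36.6 CPM in the knockout. All 3 knockout libraries were above all control libraries, at a log2 difference of 0.74 (SE 0.107, edgeR adjusted p = 0.000138). *Oasl2*, a related OAS-like protein, had 20.4, 19.2 and 21.7 CPM in Ctrl and 28.7, 31.9 and 37.7 CPM in the knockout, again without overlap and with a log2 difference of 0.68 (SE 0.0984, edgeR adjusted p = 0.000131). In *Oas2* the Ctrl libraries had 7.84, 8.18 and 9.49 CPM and the Acly M-KO libraries 9.82, 14.2 and 14.6 CPM. The first knockout library lay just above the highest control, and the log2 difference was 0.60 (SE 0.152, edgeR adjusted p = 0.00928). It did not pass without the second Acly M-KO library (0.52, edgeR adjusted p = 0.0583) or without the third (0.50, edgeR adjusted p = 0.0529).

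*Oas1a*, the most abundant OAS member per length, had 26.8, 27.3 and 31.2 CPM in Ctrl against 33.5, 36.5 and 34.1 CPM in the knockout. The groups did not overlap, and the log2 difference was 0.29 (SE 0.0776, edgeR adjusted p = 0.0133). This call was lost without the first Ctrl library (0.24, edgeR adjusted p = 0.0544) and without the second Acly M-KO library (0.25, edgeR adjusted p = 0.0758). Its neighbour and close copy *Oas1g* was at 0.10 (95% interval -0.22 to 0.42), and reads that fit both genes could have been counted on either. *Oasl1*, which lies 11005 bases from *Oasl2* on the same strand and is known to restrain *Irf7* translation, was at -0.35 (-0.83 to 0.13, edgeR adjusted p = 0.28), with all 3 knockout libraries below the controls at 1.84 to 2.44 CPM. On GRCm38 (GENCODE M21), *Oas3* spans chr5:120753098-120777661 and lies 3244 bases from *Oas2*, in the locus that also holds *Oas1a* and *Oas1g*, whereas *Oasl2* is at chr5:114896936-114912234.

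**Figure D3:**
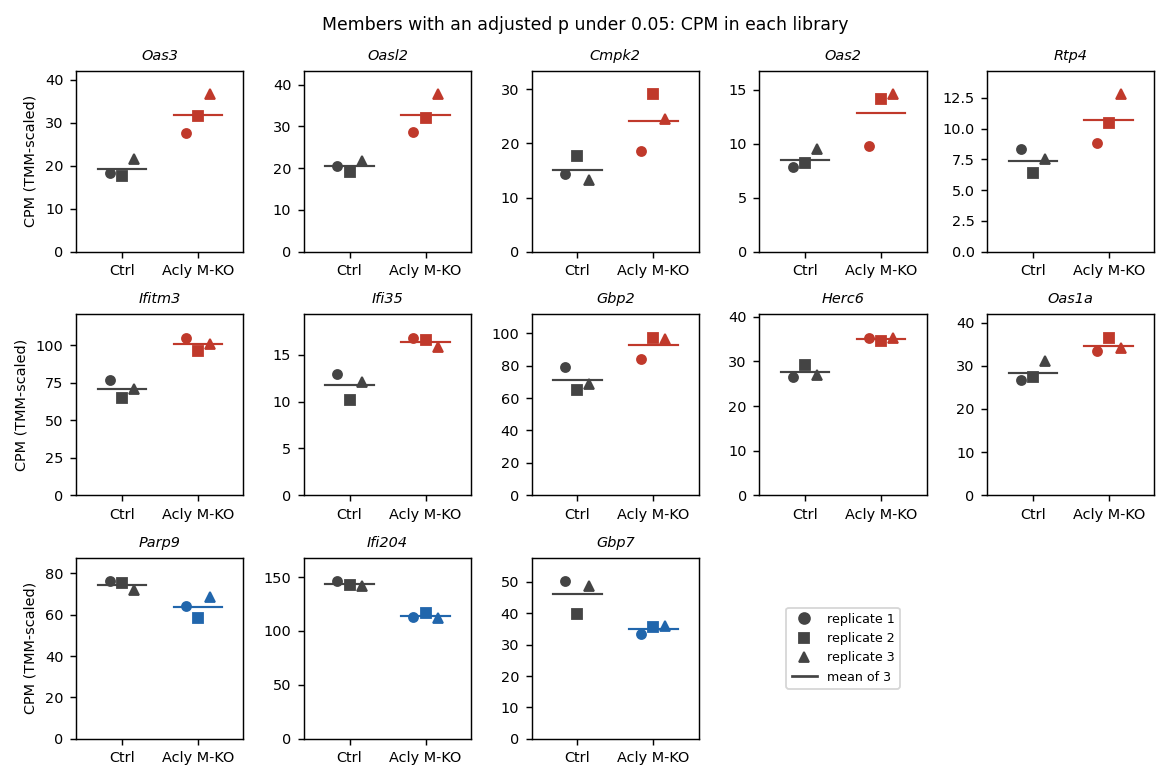
CPM (y axis, from 0) in each library of the 13 ISGs with an adjusted p under 0.05, with 1 symbol for each replicate and a line at the mean of 3. The knockout libraries lie above all Ctrl libraries in the 10 red panels and below them in the 3 blue panels, and the first knockout library (circle) is the lowest of its group in *Oas3*, *Oasl2*, *Cmpk2*, *Oas2*, *Rtp4*, *Gbp2* and *Oas1a*.

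None of the 3 tested IFIT genes passed with all 6 libraries and the filter on low counts in edgeR, DESeq2 or limma-voom, and 1 had an unadjusted p under 0.05 in edgeR. Of all tested genes, 12.4% were higher and 12.6% lower in edgeR. The IFIT family encodes tetratricopeptide proteins that bind viral RNA or stall translation initiation. *Ifit2*, the most abundant of them per length, had 26.1, 25.4 and 21.6 CPM in Ctrl and 20.7, 35.6 and 30 CPM in the knockout. The first knockout library was the lowest of all 6 and the second the highest, and the log2 fold change was 0.24 (95% interval -0.068 to 0.54, edgeR adjusted p = 0.25). It passed without the first knockout library (0.43, edgeR adjusted p = 0.0116) and, with all 6 libraries, when no filter on low counts was applied (0.23, edgeR adjusted p = 0.0409). *Ifit1* was at 0.35 (0.025 to 0.68, edgeR adjusted p = 0.11) and passed only without the second Ctrl library (0.51, edgeR adjusted p = 0.0222). *Ifit3* was at 0.35 with a wide interval of -0.23 to 0.92. *Ifit3b*, its near-identical copy, held 1, 3 and 2 counts in the Ctrl libraries against 3, 7 and 6 counts in the knockout, which was too few to test.

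Of the 3 genes of the ISG15 system, 1 was higher (33.3%, against 12.4% of all tested genes) and 0 were lower (against 12.6%). All 3 had higher values in every knockout library than in any control, an order found for 20.5% of all tested genes. ISG15 is a ubiquitin-like modifier, *Herc6* is the main mouse ligase that attaches it, and *Usp18* removes it and also shields the interferon receptor from further signalling. *Herc6* had 26.4, 29.3 and 26.9 CPM in Ctrl and 35.3, 34.5 and 35.2 CPM in the knockout. The knockout libraries lay close together above the controls, with a log2 difference of 0.35 (SE 0.0711, edgeR adjusted p = 0.00203). Exons of *Gm45193* cover 26.6% of the exonic bases of *Herc6*, and the part of that gene in the count was not tested. *Usp18*, the most abundant of the 3 per length, had 21.7, 22.5 and 24.8 CPM in Ctrl and 27.9, 27.5 and 25.1 CPM in the knockout. The ranges were close but did not overlap, and the log2 fold change was 0.22 (0.049 to 0.40, edgeR adjusted p = 0.0582). It passed without the third Ctrl library (0.28, edgeR adjusted p = 0.0424). *Isg15* was at 0.40 (0.0093 to 0.79, edgeR adjusted p = 0.127), without overlap between the groups but at no more than 6.43 CPM in any library.

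The interferon-induced GTPases went both ways. *Gbp2*, a guanylate-binding protein that attacks the membranes around intracellular pathogens, had 79.3, 65.1 and 68.9 CPM in Ctrl and 83.9, 97.2 and 96.6 CPM in the knockout. It lies at chr3:142620602-142638008 and was higher without overlap, with a log2 difference of 0.38 (SE 0.0733, edgeR adjusted p = 0.00149). *Gbp7*, a family member known for oxidative defence in macrophages, had 50.2, 39.8 and 48.7 CPM in Ctrl and 33.4, 35.5 and 36.1 CPM in the knockout. Here every knockout library was below every control, and the log2 difference was -0.41 (SE 0.0815, edgeR adjusted p = 0.00192). *Gm43802* shares 11.3% of the exonic bases of *Gbp7*. *Gbp3*, which lies between them, was at -0.12 (-0.34 to 0.10, edgeR adjusted p = 0.426). *Mx1*, whose row is a non-coding transcript and which is disrupted in common laboratory strains, was at 0.17 (-0.14 to 0.49), and *Mx2* at 0.52 (-0.19 to 1.23) with at most 1.3 CPM.

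In the order *Gbp5*, *Gbp7*, *Gbp3* and *Gbp2* along chromosome 3, the log2 fold changes were -0.55, -0.41, -0.12 and 0.38. The gaps between them were 7997, 9876 and 47392 bases, and genes outside the lists that may lie in these gaps were not looked up. In this row of genes, which was singled out after its values were seen, the gene at the far end was the one that rose. Over all 8 GBP genes measured here, the 3 members and 5 from the interferon-gamma list, 1 was higher, 6 were lower and 1 was neither. Of all tested genes, 12.4% were higher and 12.6% lower. Of the 6, *Gbp4* and *Gbp6* did not pass in DESeq2, and *Gbp4*, *Gbp5* and *Gbp6* lost the call in some fits without 1 library, as given with the interferon-gamma list. Reads that fit more than 1 of these similar genes are uncertain, as the counting program is not given in the sources used here.

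*Cmpk2* and *Rsad2*, a pair of antiviral nucleotide enzymes with divergent promoters 12751 bases apart on chromosome 12, differed in their call. *Cmpk2*, a mitochondrial nucleotide kinase at chr12:26469204-26479837, had 14.3, 17.7 and 13.2 CPM in Ctrl and 18.6, 29.1 and 24.5 CPM in the knockout. The groups did not overlap, and the log2 difference was 0.68 (SE 0.144, edgeR adjusted p = 0.00281). *Rsad2* encodes viperin, which turns CTP into a chain terminator of viral RNA synthesis, and had 44.9 to 55 CPM in Ctrl and 46.2 to 68 CPM in the knockout. These ranges overlapped, and its log2 fold change was 0.26 (0.0097 to 0.51, edgeR adjusted p = 0.122). The difference between the genes was not tested. *Rsad2* passed without the second Ctrl library (0.38, edgeR adjusted p = 0.0119), without the first Acly M-KO library (0.38, edgeR adjusted p = 0.0275), with the replicate number as a block (0.25, edgeR adjusted p = 0.0214) and with no filter on low counts (0.26, edgeR adjusted p = 0.00147).

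*Samhd1* had 527, 505 and 501 CPM in Ctrl and 490, 512 and 517 CPM in the knockout. Its groups overlapped, and the 95% interval of the log2 fold change, -0.11 to 0.08, was the narrowest of the members. The exonuclease *Isg20* was at -0.31 (-1.05 to 0.42) with at most 1.06 CPM. In this role, 1 of 4 members was higher (25%, against 12.4% of all tested genes) and 0 were lower (against 12.6%).

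Among the membrane proteins, *Ifitm3* had the smallest adjusted p of all members. It had 76.8, 65.1 and 70.9 CPM in Ctrl and 105, 96 and 101 CPM in the knockout, with a clear gap between the groups, and lies at chr7:141009586-141010770. The log2 difference was 0.51 (SE 0.0617, edgeR adjusted p = 2.73e-05). *Rtp4*, a chaperone of membrane receptors that also acts on viral RNA, had 8.31, 6.38 and 7.51 CPM in Ctrl and 8.87, 10.5 and 12.8 CPM in the knockout. Its groups did not overlap, and the log2 difference was 0.53 (SE 0.154, edgeR adjusted p = 0.0211). *Rtp4* was the least stable of the higher members, as the call was lost in 4 of the 6 fits that left out a library. These were the fits without the second Ctrl library (0.43, edgeR adjusted p = 0.0563), the third Ctrl library (0.53, edgeR adjusted p = 0.0515), the second Acly M-KO library (0.54, edgeR adjusted p = 0.0575) and the third (0.38, edgeR adjusted p = 0.118). *Bst2* had 142, 112 and 135 CPM in Ctrl and 133, 127 and 129 CPM in the knockout. The knockout values fell inside the control range, with a 95% interval of -0.15 to 0.15 on the log2 scale.

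Among the 6 sensors of foreign nucleic acid, 1 was lower (16.7%, against 12.6% of all tested genes) and 0 were higher (against 12.4%). *Ifi204*, a PYHIN protein that binds DNA, had 146, 143 and 142 CPM in Ctrl and 113, 117 and 112 CPM in the knockout. The libraries of each group lay within a few CPM of each other and did not overlap, and the log2 difference was -0.33 (SE 0.0475, edgeR adjusted p = 0.000109). *Ifi204*, at chr1:173747293-173766943, belongs to a cluster of similar genes, so reads shared with its copies are uncertain. The RNA sensors *Ifih1* (MDA5) and *Ddx58* (RIG-I) were at -0.10 (-0.26 to 0.05) and -0.09 (-0.25 to 0.06), and *Dhx58* (LGP2) was at 0.07 (-0.18 to 0.31). The Z-nucleic acid sensor *Zbp1* was at -0.06 (-0.27 to 0.16). *Eif2ak2* (PKR), the kinase that stops translation on double-stranded RNA, was at 0.09 (-0.074 to 0.24) and passed without the second Ctrl library only (0.17, edgeR adjusted p = 0.0495).

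*Parp9* and *Parp14* belong to the family of ADP-ribosyltransferases. *Parp9* had 76.1, 75.2 and 71.9 CPM in Ctrl and 64.1, 58.5 and 68.3 CPM in the knockout. It was lower without overlap, at a log2 difference of -0.23 (SE 0.0606, edgeR adjusted p = 0.0128), and did not pass without the second Acly M-KO library (-0.17, edgeR adjusted p = 0.0936). Its exons overlap those of *Dtx3l*, the ligase it works with, over 10.3% of their bases, and *Dtx3l* was at -0.15 (edgeR adjusted p = 0.046). *Parp14*, the more abundant per length, had 176, 167 and 155 CPM in Ctrl and 165, 164 and 195 CPM in the knockout. The third knockout library was the highest of all, the groups overlapped, and the log2 fold change was 0.07 (-0.07 to 0.22).

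Of the remaining 5 members, 1 was higher (20%, against 12.4% of all tested genes) and 0 were lower (against 12.6%). *Ifi35*, a small leucine zipper protein that pairs with *Nmi*, had 12.9, 10.2 and 12.1 CPM in Ctrl and 16.8, 16.6 and 15.8 CPM in the knockout. The knockout was higher without overlap, with a log2 difference of 0.48 (SE 0.107, edgeR adjusted p = 0.00423), although *Gm11626* covers 17.4% of its exonic bases. *Sp100*, a nuclear body protein and the most abundant of these per length, had 68.9, 77.6 and 72.1 CPM in Ctrl and 63.9, 70.1 and 73.9 CPM in the knockout. Its groups overlapped, at a log2 fold change of -0.07 (-0.21 to 0.06). *Ifi44* stood at 1.62 to 2.04 CPM in Ctrl and at 1.43, 3.35 and 3.43 CPM in the knockout, a log2 fold change of 0.59 (-0.067 to 1.25, edgeR adjusted p = 0.182) that became 0.89 without the first knockout library (edgeR adjusted p = 0.025). *Xaf1*, an apoptosis-related ISG, was at 0.21 (-0.078 to 0.50), and *Trim30a* at -0.02 (-0.14 to 0.11).

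The libraries differed in a way the groups do not capture. Among the 40 tested members, the first Acly M-KO library was the lowest of its group for 27 (67.5%), whereas it was the lowest for 32.7% of all tested genes. The third was the highest of its group for 19 members (47.5%, against 34.7% of all tested genes) and the second for 15 (37.5%, against 31%). The median deviation of the members from their 6-library mean was -0.04 in the first Acly M-KO library, 0.14 in the second and 0.10 in the third, and between -0.08 and -0.065 in the Ctrl libraries. Summed over the members, the level was 1982, 2091 and 2156 CPM in the Acly M-KO libraries and 2039, 1956 and 1966 CPM in the Ctrl libraries, which overlap. The IFIT genes varied most, with a median coefficient of variation of 18.2% in Ctrl and 26.2% in Acly M-KO, against 9.57% and 7.96% for all tested members. No label gives a batch, so the source of this spread was not tested.

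**Figure D4:**
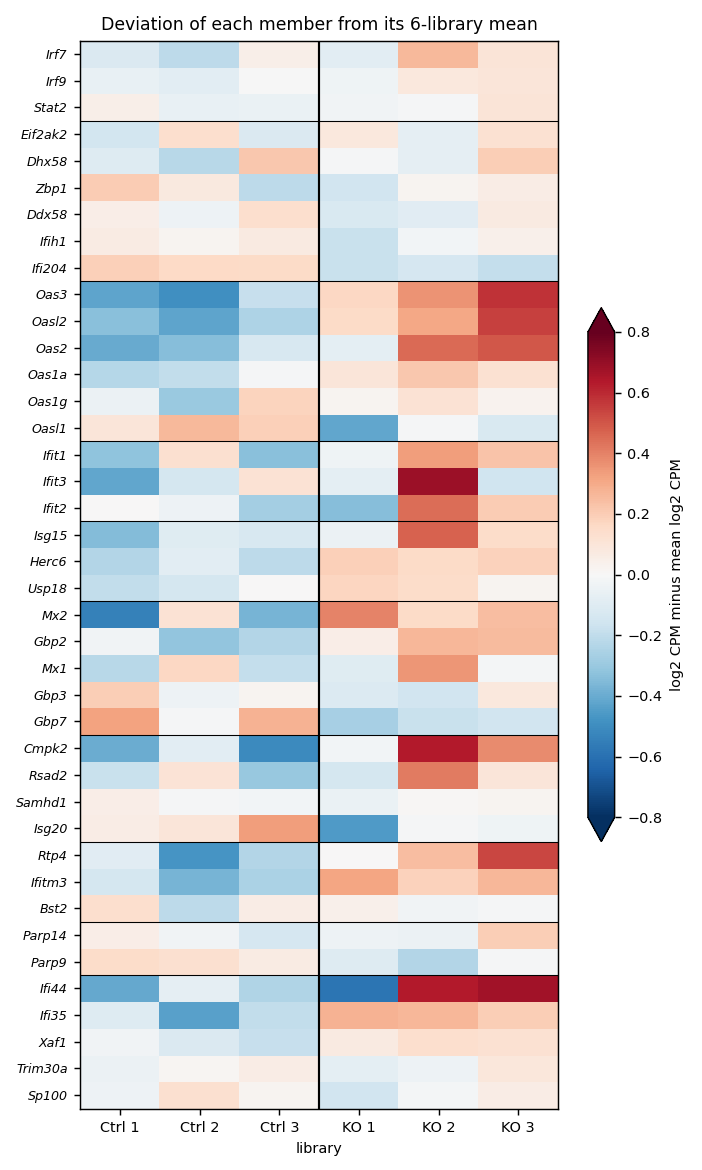
Deviation of each tested ISG (rows, in the order of the fold change plot) from its 6-library mean (colour, log2 CPM) in the 3 Ctrl and 3 Acly M-KO libraries (columns). The first knockout column is paler or bluer than the other two in *Ifit1*, *Ifit2*, *Oas2*, *Cmpk2*, *Rsad2* and *Ifi44*, and all 3 knockout columns are red for *Oas3*, *Oasl2*, *Herc6*, *Ifitm3* and *Ifi35*.

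The upstream part of the pathway was examined with further lists. No read was counted on any of the 8 interferon ligands looked for, which were *Ifnb1*, *Ifna1*, *Ifna2*, *Ifna4*, *Ifna5*, *Ifnl2*, *Ifnl3* and *Ifng*. A count of 0 allows a level of up to 3 counts in a library, or 0.192 to 0.247 CPM, for counting error only. Transcripts of these 8 genes were not detectable at this depth in either group, and other interferon genes were not looked up. At an adjusted p under 0.05, 1 of the 7 receptor and kinase genes was higher (14.3%, against 12.4% of all tested genes). Another 2 were lower (28.6%, against 12.6%). *Jak2*, a kinase of the interferon-gamma receptor and of several cytokine receptors, was higher (242, 226 and 238 CPM in Ctrl, 286, 284 and 272 CPM in the knockout, log2 fold change 0.26, edgeR adjusted p = 0.0013). *Ifnar2* was lower (138, 131 and 130 CPM in Ctrl, 110, 108 and 114 CPM in the knockout, -0.27, edgeR adjusted p = 0.000928), as was *Ifngr1*, the ligand-binding chain for interferon-gamma (192, 175 and 201 CPM in Ctrl, 132, 131 and 133 CPM in the knockout, -0.52, edgeR adjusted p = 5.68e-06). The groups did not overlap for these 3 genes.

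The other receptor chains and kinases did not pass. The log2 fold change was -0.02 for *Ifnar1* (-0.13 to 0.08), -0.11 for *Jak1* (-0.20 to -0.013, edgeR adjusted p = 0.0901, and -0.13 with edgeR adjusted p = 0.0455 under library size scaling) and -0.11 for *Tyk2* (-0.22 to 0.0043). *Irf1*, a transcription factor induced by interferon-gamma, was at 0.02 (-0.14 to 0.17) and *Irf3*, the factor that starts interferon transcription, at 0.05 (-0.13 to 0.24). Of the 5 further IRF factors, *Irf8*, which sets the macrophage programme together with PU.1, was lower at -0.43 (187, 171 and 184 CPM in Ctrl, 138, 135 and 130 CPM in the knockout, edgeR adjusted p = 2.36e-05). In the list of 11 genes that sense nucleic acid and induce interferon, 0 were higher in edgeR, DESeq2 or limma-voom. In edgeR 12.4% of all tested genes were higher, and 1 of the 11 was higher at an unadjusted p under 0.05. Of the 11, 5 were lower (45.5%, against 12.6% of all tested genes). These were *Tlr9* (-0.55, edgeR adjusted p = 0.00239), *Tlr3* (-0.46, edgeR adjusted p = 0.00982), the kinase *Ikbke* (-0.36, edgeR adjusted p = 8.21e-05) and the adaptors *Mavs* (-0.28, edgeR adjusted p = 0.00991) and *Ticam1* (-0.25, edgeR adjusted p = 0.00769). Of the 7 negative regulators, 1 was lower (14.3%, against 12.6% of all tested genes), *Ptpn6* (SHP-1) at -0.20 (edgeR adjusted p = 0.0153). In edgeR, DESeq2 or limma-voom 0 were higher (against 12.4% of all tested genes in edgeR), as at an unadjusted p under 0.05 in edgeR. Without 1 library the call was lost for *Mavs* (first Acly M-KO library, -0.22, edgeR adjusted p = 0.0659), *Tlr3* (second Acly M-KO library, -0.33, edgeR adjusted p = 0.059) and *Ptpn6* (first Ctrl library, -0.15, first Acly M-KO library, -0.19, and second Acly M-KO library, -0.18).

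Among genes typical of the response to interferon-gamma, which are GTPases, chemokines and *Ciita*, 6 of the 11 tested were lower in edgeR and limma-voom and 3 in DESeq2, against 12.6% of all tested genes in edgeR. In edgeR, DESeq2 and limma-voom 0 were higher (against 12.4% of all tested genes in edgeR), as at an unadjusted p under 0.05 in edgeR. *Gbp8* had 18.2, 13.7 and 13.4 CPM in Ctrl and 5.94, 9.26 and 7.67 CPM in the knockout, a log2 fold change of -0.99 (edgeR adjusted p = 0.000338). *Gbp9* had 48.6, 46.3 and 48.3 CPM in Ctrl and 30.1, 30.7 and 29.4 CPM in the knockout, at -0.67 (edgeR adjusted p = 1.93e-06). Neither gene overlapped between the groups. *Gbp4* (-0.84, edgeR adjusted p = 0.0206), *Gbp5* (-0.55, edgeR adjusted p = 0.0233), *Gbp6* (-0.54, edgeR adjusted p = 0.0284) and *Ciita*, the master regulator of MHC class II (-0.34, edgeR adjusted p = 0.026), were also lower. Exons of *Gm43302* cover 66.3% of the exonic bases of *Gbp6*, and its part in the count was not tested. In DESeq2, *Gbp4*, *Gbp6* and *Ciita* did not pass (DESeq2 adjusted p = 0.0534, 0.0959 and 0.0725). *Gbp4* lost its call without the third Ctrl library (-0.69) or the third Acly M-KO library (-0.67), and *Gbp5* without the second Ctrl library (-0.44) or the first Acly M-KO library (-0.36). *Gbp6* lost it without the first Ctrl library (-0.43) or any 1 of the Acly M-KO libraries (-0.53 to -0.55), and *Ciita* in 5 of the 6 such fits (-0.30 to -0.36), all but that without the first Ctrl library. The immunity-related GTPases *Irgm1*, *Igtp* and *Irgm2* and the chemokine *Cxcl10* were not past 0.05, with log2 fold changes of 0.0016, -0.03, -0.16 and 0.30.

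In a list of 33 further tested ISGs outside the 41 members, 4 were higher (12.1%, against 12.4% of all tested genes). From the same list 7 were lower (21.2%, against 12.6%). The higher genes were *Nmi* (0.31), *Helz2* (0.31), *Parp12* (0.29) and *Ifi27l2a* (0.26), of which *Nmi* and *Helz2* lost the call in DESeq2 (DESeq2 adjusted p = 0.14 and 0.08). The lower genes were *Epsti1* (-0.48), *Ly6e* (-0.40), *Sp140* (-0.36), *Ifi211* (-0.36), *Ifi203* (-0.35), *Lgals3bp* (-0.20) and *Dtx3l* (-0.15), of which *Ifi211* and *Dtx3l* lost it there (DESeq2 adjusted p = 0.0772 and 0.0905). *Ifi27l2a* was at 0.19 when the rows of a gene were summed (edgeR adjusted p = 0.103), and exons of other genes cover 18.5% of the exonic bases of *Sp140*. In the fits that left out 1 library, *Nmi* lost the call in all 6 fits (0.24 to 0.35), *Helz2* in all but that without the second Ctrl library (0.16 to 0.35), and *Dtx3l* in all but that without the third (-0.13 to -0.17). *Ifi211* lost it without the first Ctrl library (-0.35), the third Ctrl library (-0.34) or the third Acly M-KO library (-0.26). *Sp140* (-0.29) and *Lgals3bp* (-0.16) lost it without the second Acly M-KO library and *Ifi27l2a* (0.23) without the first. Over all the pathway lists, 74 of 85 genes were tested, and 5 were higher (6.76%) and 22 lower (29.7%), against the 12.4% and 12.6% of all tested genes given above. Beyond the limit of 0.58 there were 3 lower genes in edgeR, *Gbp8*, *Gbp4* and *Gbp9* (4.05%, against 2.57% of all tested genes). There were 0 higher ones (against 2.98%), and DESeq2 and limma-voom also gave 0 higher. At an unadjusted p under 0.05 in edgeR, 8 genes of these lists were higher and 27 lower. The lists were chosen with earlier results of these data known, so these shares describe the lists and are not a test of the pathway.

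**Figure D5:**
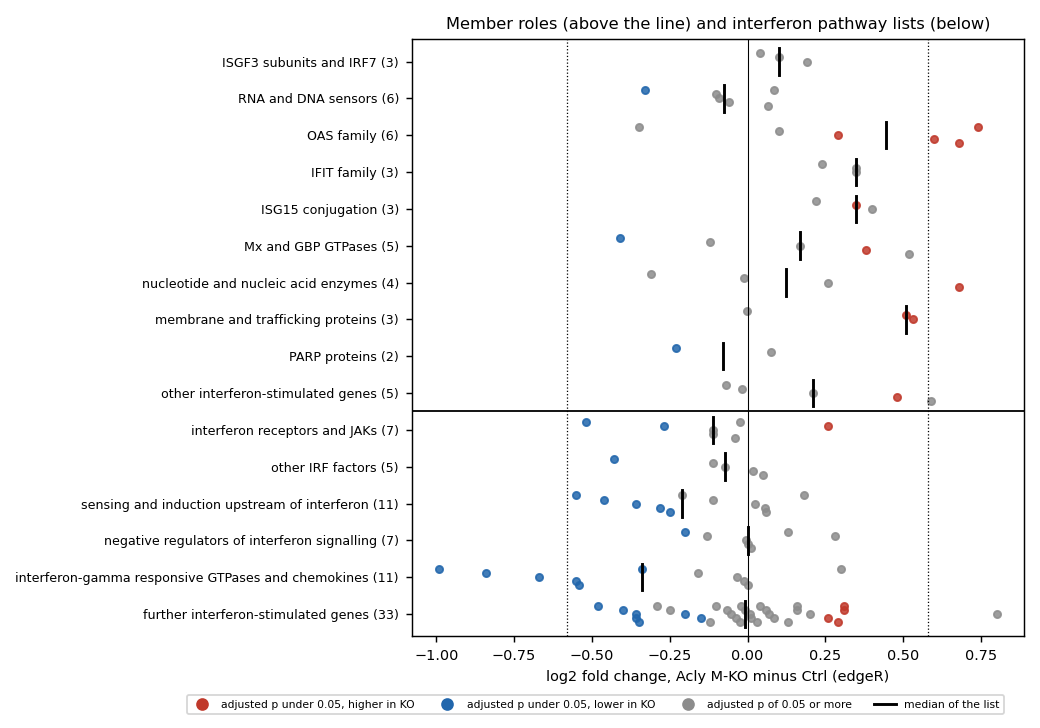
Log2 fold change (x axis, Acly M-KO minus Ctrl) of every tested gene of the 10 member roles (above the line) and of the 6 pathway lists with tested genes (below it), with the number of genes in brackets, the list median as a black bar and the limit of 0.58 as dotted lines. The OAS median lies at 0.44 and that of the interferon-gamma list at -0.34.

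Markers of other cells were measured in the same libraries, since in bulk RNA a change in cell makeup and a change in RNA per cell cannot be told apart. The 9 neutrophil and precursor markers summed to 16.5 to 18.8 CPM in Ctrl and to 24.3 to 26.1 CPM in the knockout. *S100a8* (log2 fold change 0.85, edgeR adjusted p = 0.00257) and *S100a9* (0.59, edgeR adjusted p = 0.0152) were higher, while 5 of the 9, the defining markers *Ly6g*, *Mpo* and *Elane* among them, had at most 10 counts in every library. *Ngp* (0.37, edgeR adjusted p = 0.108) and *Ltf* (0.35, edgeR adjusted p = 0.206) did not pass. All 4 tested neutrophil markers had every knockout library above every control, as had 20.5% of all tested genes. The 5 plasmacytoid dendritic cell markers summed to 72.6 to 77.4 CPM in Ctrl and 60.8 to 65.3 CPM in the knockout. Nearly all of this was *Tcf4*, which was lower (-0.26, edgeR adjusted p = 0.00252), while *Siglech*, *Ccr9* and *Spib* had at most 10 counts and *Ly6d* 0 in every library. The 5 conventional dendritic cell markers summed to 1.82 to 3.93 CPM and 3.49 to 4.31 CPM, with *Cd209a* higher (1.65, edgeR adjusted p = 0.0128). That call rests on 3, 3 and 6 counts in Ctrl and 12, 16 and 15 counts in the knockout. *Zbtb46* was at 0.08 and did not pass, and the other 3 of the 5 had at most 10 counts in every library. The 6 lymphocyte markers stayed at 0.152 to 0.676 CPM in Ctrl and 0.409 to 0.643 CPM in the knockout, and the 3 fibroblast markers at 0 to 0.818 CPM and 0.643 to 1.23 CPM. Of the macrophage markers, *Adgre1* was higher (0.33) and *Csf1r* (-0.20), *Itgam* (-0.28) and *Mertk* (-0.73) were lower, although *Gm49368* covers 73.7% of the exonic bases of *Itgam*. The part of these differences, or of the greater depth of the knockout libraries, in the ISG results was not tested.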

How the data were processed

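Total RNA from IL-4-treated BMDMs was made into strand-specific mRNA libraries with a KAPA kit and read on a HiSeq instrument. Reads were aligned to mm10 with STAR 2.5.2b. CASAVA 1.8.2 is also named in the submitters' processing notes. The authors deposited unnormalized read counts per RefSeq transcript in 35745 rows. The counting program is not given in the sources used here. *Xist* and its antisense gene *Tsix* had equal counts in 5 of 6 libraries. The size of these counts was not examined, so overlapping genes on opposite strands may share counts, but this was not established.

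Rows were named through RefSeq (35440) and GENCODE M21 (188), and 117 rows without a gene (0.37% to 1.38% of counts) entered neither the library sizes nor the tests. The row with the highest total was kept for each of 24445 genes, giving 12151975 to 15587283 counts per library. Replicates differed by more than counting noise (chi-square per gene 2.32 to 7.55), so all 6 were kept.

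Groups and replicate numbers were taken from the sample titles. The quasi-likelihood test of edgeR 4.0.16 (R 4.3.3) was fitted to all 6 libraries with genotype as its single term, after filterByExpr and TMM (glmQLFit, glmQLFTest), and p-values were adjusted over 12023 genes. The common biological coefficient of variation was 0.0588. The SE is the log2 fold change divided by the root of the F statistic, and 95% intervals use the same SE. CPM were computed on library sizes scaled by TMM, and RPKM use the length of the matched transcript. A call required an adjusted p under 0.05, with or without a log2 fold change beyond 0.58. The intervals include the spread between libraries, and the floor of 3 counts covers counting error only. Alternatives were DESeq2 1.42.0, limma-voom (limma 3.58.1), RLE, upper quartile and library size scaling, other filters on low counts, summed rows, the replicate number as a block, each library left out and, added after seeing the data, glmTreat.

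Besides the members, the lists covered interferon ligands, receptors with JAKs, other IRF factors, sensing and induction of interferon, negative regulators, interferon-gamma responsive genes, further ISGs and markers of macrophages, neutrophils, plasmacytoid and conventional dendritic cells, lymphocytes and fibroblasts. The rule named *Acly*, every member, list genes beyond the limit at an adjusted p under 0.05, and *Ifnar1*, *Ifnar2*, *Jak1*, *Tyk2*, *Irf1*, *Irf3* and *Ifnb1*. Other genes of the pathway and marker lists were named after their values were seen. Values per library are given for members that passed and for the most abundant member of each role. *Dhx58*, *Zbp1*, *Ifi204*, *Oas2*, *Usp18*, *Mx1*, *Mx2*, *Rtp4*, *Parp9* and *Parp14* had no promoter window. The members and lists were chosen with earlier results of these data known. Only IL-4-treated BMDMs were analysed here, and 1 gene of the pathway lists is not reported here.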

Additional observations from a re-analysis of the deposited data

How the results depend on the processing

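The counts of members kept their side under DESeq2, limma-voom, the other scalings, filters and summed rows, with 4 members higher and 0 lower beyond the limit, and 10 higher (12 without a filter on low counts) and 3 lower at an adjusted p under 0.05. The test against the limit (glmTreat, added after seeing the data) gave 0 higher. Leaving out each library gave 2 to 6 higher beyond the limit, and 7 to 13 higher and 2 to 3 lower at an adjusted p under 0.05. *Acly* stayed between -1.31 and -1.24 in these fits. The median log2 fold change of the members ranged from 0.10 to 0.21 without 1 library and was 0.16 with library size only. No scaling moved the median of all genes by more than 0.1.

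Members and pathway genes near 0 changed sign, and the cause was not tested. *Bst2* became 0.0022 in limma-voom, 0.003 with upper quartile scaling and 0.0057 with the replicate block, *Sp100* became 0.0088 with summed rows, and *Irf1* became -0.0034 with library size only. Without 1 library the log2 fold changes ranged from -0.00096 to 0.073 for *Stat2*, -0.023 to 0.19 for *Dhx58*, -0.17 to 0.036 for *Zbp1*, -0.01 to 0.21 for *Oas1g*, -0.031 to 0.01 for *Samhd1*, -0.10 to 0.067 for *Bst2*, -0.0099 to 0.12 for *Parp14*, -0.068 to 0.016 for *Trim30a*, -0.078 to 0.12 for *Irf1* and -0.013 to 0.15 for *Irf3*.

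No pairing by replicate number was seen over all genes, as the deviations of same-numbered libraries correlated at -0.0651, 0.0498 and -0.0314. Whether same-numbered libraries shared a pool or a preparation cannot be told from these values. With the replicate block, 11 members were higher and 3 lower at an adjusted p under 0.05, and 4 were higher beyond the limit. With 3 libraries a group, an exact test of a single gene cannot go below p = 0.1, so the calls rest on the spread that edgeR shares between genes, and depth limits what can be said of *Ifit3b*, *Mx2*, *Isg20*, *Ifi44* and the interferon ligands.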
